A study of Macaca radiata with 6 samples.

Results

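The progesterone receptor gene PGR, the progesterone receptor membrane component genes PGRMC1 and PGRMC2, and the genes FKBP4 and FKBP5, which encode receptor-associated immunophilins, were examined in the corpus luteum (CL) of the bonnet monkey. All probe sets whose single gene symbol in the platform annotation was PGR, PGRMC1, PGRMC2, FKBP4 or FKBP5 were taken, whatever their values, which gave 13 probe sets for 5 of the 14132 genes on the array with a single symbol. PGR and FKBP5 had 1 probe set each, FKBP4 had 3, and PGRMC1 and PGRMC2 had 4 each. In the CET group, female monkeys received 1 subcutaneous injection of Cetrorelix, an antagonist of the GnRH receptor that withdraws LH support and with it P4 secretion, at 150 µg/kg BW on day 7 of the luteal phase, and CL were removed after 24 h (3 arrays, replicates 1 to 3). In the vehicle group (VEH), the antagonist was replaced by 5.25% glucose (3 arrays, replicates 4 to 6). Both groups thus had a mid-luteal CL at injection, and RNA came from pieces of whole luteal tissue. In such bulk tissue, fewer cells of a type and less RNA per cell cannot be told apart. The question addressed was which components of progesterone action differed in luteal mRNA level 24 h after LH/P4 depletion.

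Progesterone acts in target tissue through the nuclear receptor (PR), a ligand-activated transcription factor encoded by PGR. Before it binds hormone, PR is held in a complex with the heat shock protein Hsp90 and a co-chaperone, and the immunophilins FKBP52 (FKBP4) and FKBP51 (FKBP5) compete for the same place in that complex. FKBP52 is known to favour hormone binding and PR activity and FKBP51 to lower them, while FKBP5 is itself a widely used transcriptional target of glucocorticoid, androgen and progesterone receptors. PGRMC1 and PGRMC2 are membrane proteins of the cytochrome b5 family that bind heme and are not related to the nuclear receptor. In luteal and granulosa cells they have been studied as candidates for rapid actions of progesterone.

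Values are quantile-normalized log2 array signals and differences are CET minus VEH, tested by limma on 52707 probe sets, with p-values adjusted over all of them by the Benjamini-Hochberg method. No probe set among the 13, and none on the array (0.00%), passed an adjusted p of 0.05, and the smallest adjusted p was 0.83. Differences in either direction are therefore given below as values with their errors. At an unadjusted p under 0.05 stood 2 of the 13, both lower after CET, against a background of 5.39% of all probe sets in either direction, 2.75% lower and 2.63% higher. These were FKBP5 and 1 probe set of PGRMC1. The CET arrays all lay below the VEH arrays at 2 of the 13, FKBP5 and a dim probe set of PGRMC2, where 5.25% of all probe sets did so. None had all CET arrays above the VEH arrays (5.90% of all probe sets), and 11.2% of all probe sets did not overlap in either direction. A mean at least 1.5-fold lower after CET was found for 5 of the 13 and at least 1.5-fold higher for 3, against 23.8% and 23.9% of all probe sets, or 47.7% in either direction. The mean was lower after CET at 8 of the 13 and at 49.9% of all probe sets.

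The arrays were not of like RNA quality. The mean log2 ratio of 3′ to 5′ control signals over GAPDH, actin and EF1A, which is high when transcripts are degraded or incompletely copied, was 2.67, 5.92 and 1.12 on CET replicates 1 to 3, against 3.54, 0.61 and 1.16 on VEH replicates 4 to 6. CET replicate 2 was thus the highest and VEH replicate 5 the lowest, and values without these arrays are given where they bear on a member. By rank correlation over all probe sets, each CET array was on average closer to the VEH arrays than to the other CET arrays: the mean rho was 0.66 with CET and 0.76 with VEH arrays for CET replicate 1, 0.710 and 0.727 for CET replicate 2, and 0.709 and 0.733 for CET replicate 3. RPL19, the internal control of the RT-PCR of the study, differed by -0.38 (standard error 0.46), or by 0.02 without CET replicate 2. STAR, which encodes the mitochondrial cholesterol carrier of steroidogenesis and marks luteal cells, was among the brightest probe sets of the array, as the luteal label of the tissue requires. In summed signal, the 7 luteal steroidogenic markers with a probe set ranged from 39664 to 103661 in CET and from 92644 to 127628 in VEH. All 7 averaged lower after CET, as did 54.7% of all genes at their brightest probe set. The 9 endothelial markers summed to 15721 to 26081 in CET and 16572 to 20687 in VEH, with 7 lower. The 5 stromal markers spanned 11550 to 32969 in CET and 22080 to 32462 in VEH. Leukocyte markers (6 of 10 with a probe set) spanned 1493 to 3803 in CET and 2657 to 2808 in VEH, epithelial markers (7 of 7) 886 to 2370 and 2261 to 2896, pericyte markers (4 of 8) 2891 to 4584 and 3680 to 5367, and erythrocyte markers (2 of 4) 1763 to 4521 and 1895 to 3269, with CET before VEH. No marker was listed at 0, and EPCAM lay among the dimmest probe sets of the array. The part of these shifts in the values below was not tested except where a value is given.

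**Figure D1:**
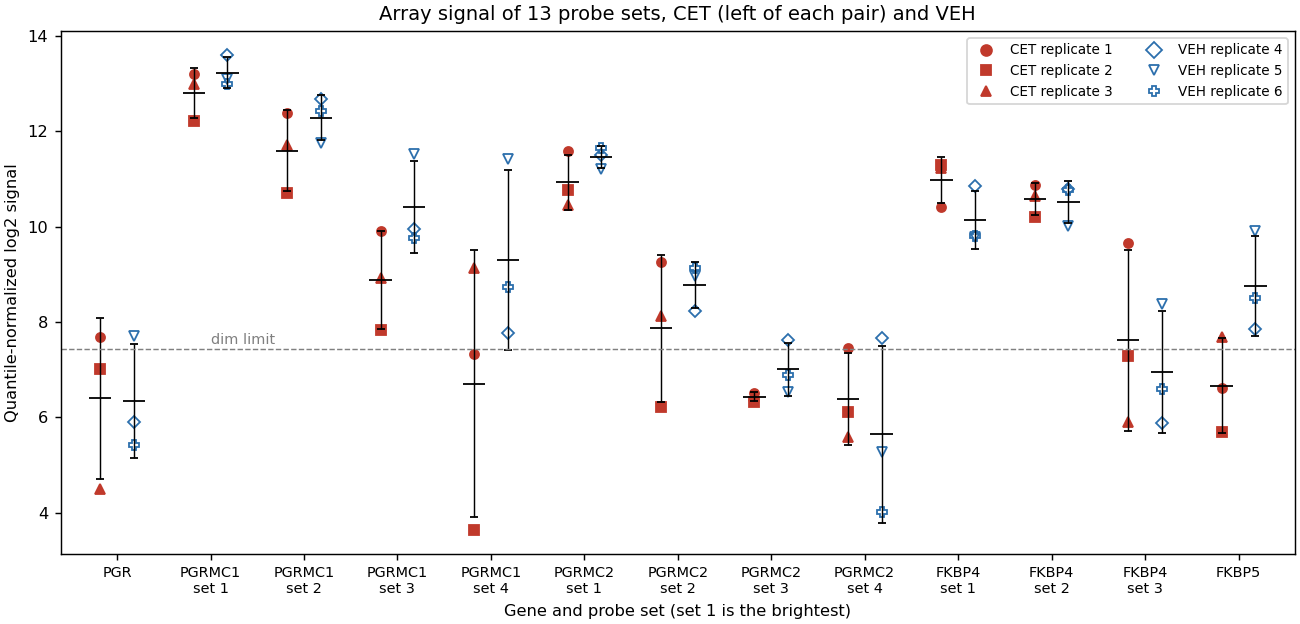
Quantile-normalized log2 signal (vertical axis) of each of the 13 probe sets on each array, with CET in filled and VEH in open symbols, horizontal bars for group means and vertical bars for 1 SD (n = 3 each). The dashed line is the dim limit of 7.43. FKBP5, at the far right, has all 3 CET arrays below all 3 VEH arrays. The groups of PGR, at the far left, overlap, with a range of 3.20 in CET and 2.28 in VEH.

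PGR was read by a single probe set, MmugDNA.1632.1.S1_at (Entrez gene 613024), and the array gave no measurable difference for it. Its log2 signal was 7.68, 7.01 and 4.48 in CET replicates 1 to 3, against 5.91, 7.70 and 5.43 in VEH replicates 4 to 6. The deposited signals behind these were 236, 125 and 29.9 in CET and 63.0, 164 and 41.8 in VEH. High and low arrays occurred in both groups, so the groups overlapped, with a range of 3.20 in CET and 2.28 in VEH. The difference was 0.05 on the log2 scale (standard error 1.02, 95% interval -2.19 to 2.29, limma adjusted p = 0.99), and the interval is wide in both directions. The mean of all 6 arrays, 6.37, was below the dim limit of 7.43, below which 40% of all probe sets have their mean log2 signal. A change in PR mRNA was therefore not detectable with this probe set at these signals, and its sign depended on which array was left out, with values between -0.61 and 1.02. PR-A and PR-B come from the same gene and are not told apart by a single probe set.

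FKBP5 differed most of the 5 genes, read at the brightest probe set of each. Its log2 signals were 6.61, 5.70 and 7.68 in CET replicates 1 to 3 against 7.86, 9.92 and 8.50 in VEH replicates 4 to 6 (MmugDNA.27015.1.S1_at). The deposited signals were 109, 52.0 and 231 in CET and 240, 987 and 353 in VEH. All CET arrays lay below all VEH arrays, but the highest CET array and the lowest VEH array were only 0.18 apart on the log2 scale. The mean was 6.66 ± 0.99 in CET and 8.76 ± 1.05 in VEH (SD, n = 3 each). The log2 fold change was thus -2.10 with a standard error of 0.78 and a 95% interval of -3.81 to -0.38, and the VEH level was 4.28 times the CET level. The unadjusted limma p was 0.021, the adjusted p 0.83, and the 2-sided exact permutation p 0.1, the smallest that 3 against 3 arrays allow. The CET mean was below the dim limit and the VEH mean above it, so the low end of the fold rests on dim signals. The difference was -1.49 without VEH replicate 5, which holds the highest value, -1.60 without CET replicate 2, and -1.45 when the control 3′ to 5′ ratio entered the fit. In each of these the unadjusted limma p was above 0.05, as was that of the methods' t-test on all 6 arrays. Its sign was negative under every scaling and left-out array that was run. Within each group, however, the FKBP5 signal was lower the higher the 3′ to 5′ ratio of the array. It was 7.68, 6.61 and 5.70 at mean log2 ratios of 1.12, 2.67 and 5.92 in CET. In VEH it was 9.92, 8.50 and 7.86 at ratios of 0.61, 1.16 and 3.54. The part of RNA quality in the difference was not tested beyond the fit with the ratio.

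FKBP4, the other immunophilin of the receptor complex, averaged higher after CET at its brightest probe set (MmugDNA.11543.1.S1_at). The log2 signals were 10.42, 11.29 and 11.23 in CET replicates 1 to 3, against 10.85, 9.78 and 9.80 in VEH replicates 4 to 6. CET replicates 2 and 3 stood above all VEH arrays, while VEH replicate 4 exceeded CET replicate 1, so the groups overlapped. The means were 10.98 ± 0.49 in CET and 10.14 ± 0.61 in VEH (SD, n = 3 each), a difference of 0.84 (standard error 0.47, 95% interval -0.19 to 1.87, adjusted p = 0.83 by limma) or 1.79-fold. It ranged from 0.64 to 1.18 when 1 array was left out. The second probe set, MmugDNA.39861.1.S1_at, was nearly as bright, with a mean over all arrays of 10.5518 against 10.5605 at the first. A very small margin thus decided which of them stood for FKBP4. The second gave 10.88, 10.21 and 10.64 in CET and 10.79, 10.02 and 10.76 in VEH. Its groups covered nearly the same range, and the difference was 0.05 (95% interval -0.89 to 0.999). The third, MmugDNA.17908.1.S1_at, had a mean over all arrays and a VEH mean below the dim limit, and a CET mean above it. It ran from 5.91 to 9.66 in CET and from 5.88 to 8.38 in VEH, with a difference of 0.67 (standard error 1.02). All 3 probe sets of FKBP4 thus had a higher CET mean, but of the pair that lay above the dim limit only the first differed by more than its standard error. The shared sign was lost in some settings: the second probe set was at -0.20 with array medians subtracted, -0.20 without VEH replicate 5 and -0.099 without CET replicate 1, and the third was at -0.36 without CET replicate 1. Of the genes with 3 probe sets on this array, 33.5% had all of them on the same side.

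**Figure D2:**
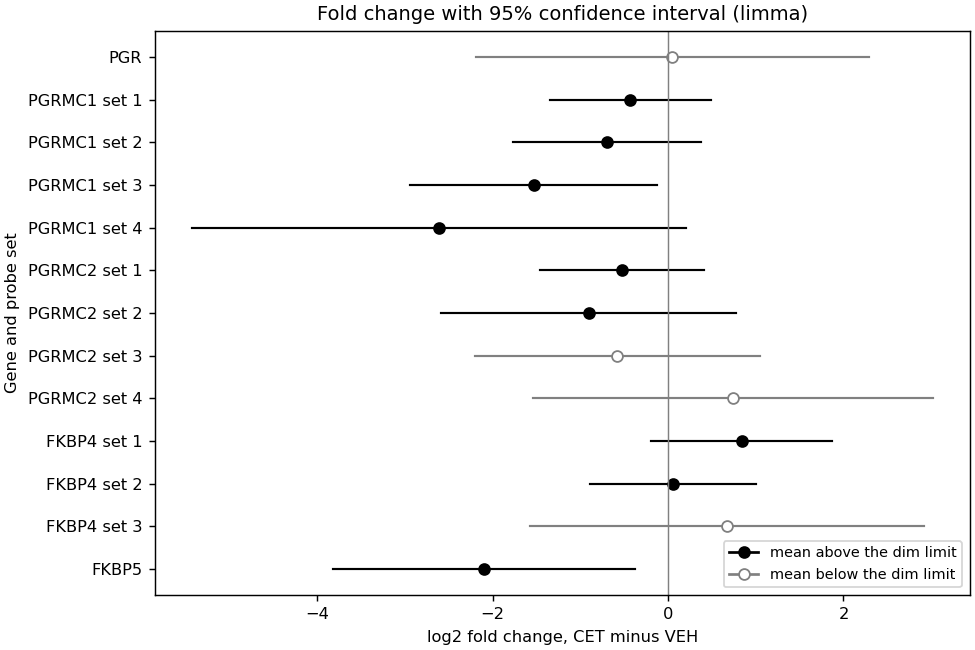
log2 fold change of each probe set, CET minus VEH (horizontal axis), with the limma 95% confidence interval as a line. Filled points have a mean above the dim limit and open points a mean below it. The intervals of FKBP5 and of the third probe set of PGRMC1 lie wholly below 0, and those of the other 11 probe sets include 0.

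Because FKBP4 and FKBP5 were read on the same arrays, their difference within an array does not move with a factor that scales a whole array. FKBP5 minus FKBP4 was -3.81, -5.59 and -3.55 in CET replicates 1 to 3, against -2.98, 0.14 and -1.30 in VEH replicates 4 to 6. The level of this difference mixes probe brightness with abundance and is not read, but its shift between groups can be. The groups did not overlap, with the CET arrays lower, and the shift was -2.94 on the log2 scale (standard error 1.11). Within each group the difference was lower the higher the 3′ to 5′ ratio of the array. It was lowest on CET replicate 2 and highest on VEH replicate 5, the arrays with the highest and lowest ratio. The ratio was not entered in a fit of this difference, and its part in the shift was not tested. The 2-sided exact permutation p was 0.1, the smallest possible with 3 against 3 arrays, and 0.2 after Benjamini-Hochberg adjustment over the 2 pairs compared. The pairs were picked as paralogs with opposite or unequal change, with earlier results of these data known. The p-value is therefore not separate support for the shift. The shift ranged from -3.74 without VEH replicate 4 to -2.13 without VEH replicate 5. It was -2.30 without CET replicate 2 and -2.62 with the mean over the probe sets of each gene. The second FKBP4 probe set, nearly as bright as the one used here, was not set against FKBP5 alone. PGRMC1 minus PGRMC2, handled the same way, was 1.63, 1.44 and 2.55 in CET and 2.10, 1.88 and 1.35 in VEH. These overlapped, and the shift was 0.10 (standard error 0.41, exact permutation p = 0.8). Its sign was not stable, with -0.17 from the signals as deposited, -0.24 without CET replicate 3 and -0.998 with the mean over the probe sets of each gene (exact permutation p = 0.2).

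**Figure D3:**
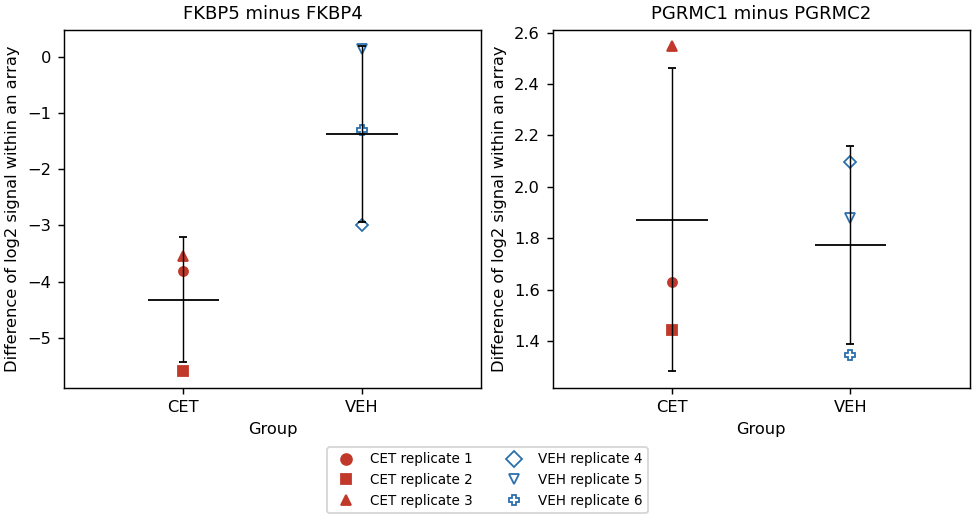
Difference in log2 signal between a pair of genes on the same array (vertical axis), FKBP5 minus FKBP4 on the left and PGRMC1 minus PGRMC2 on the right, for CET and VEH arrays, with means and 1 SD (n = 3 each). The FKBP pair separates the groups, with the CET arrays at -5.59 to -3.55 and the VEH arrays at -2.98 to 0.14, and the PGRMC pair does not.

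PGRMC1, the better studied of the membrane components, averaged lower after CET at all 4 of its probe sets, but by very different amounts. The brightest, whose name alone of the 4 lacks the MmugDNA prefix, had 13.21, 12.21 and 13.00 in CET replicates 1 to 3 against 13.60, 13.10 and 13.00 in VEH replicates 4 to 6. CET replicate 2 was the low array, and CET replicate 1 exceeded VEH replicates 5 and 6. The difference was -0.43 (standard error 0.42, 95% interval -1.35 to 0.49, adjusted p = 0.87 by limma), and -0.13 without CET replicate 2. The second, MmugDNA.2175.1.S1_at, had 12.38, 10.70 and 11.72 in CET against 12.69, 11.76 and 12.42 in VEH. Its groups also overlapped, with CET replicate 2 lowest, and the difference was -0.69 (standard error 0.49, 95% interval -1.77 to 0.38). Leaving out CET replicate 2 gave -0.25, and leaving out CET replicate 1 gave -1.05.

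The other probe sets of PGRMC1, MmugDNA.40420.1.S1_s_at and MmugDNA.40420.1.S1_at, share the stem of their names and so are not separate evidence. The third gave 9.90, 7.83 and 8.91 in CET against 9.96, 11.51 and 9.77 in VEH. Most CET values were lower, though CET replicate 1 exceeded VEH replicate 6. The difference was -1.53 (standard error 0.64, 95% interval -2.94 to -0.12, limma adjusted p = 0.83), and the 2-sided exact permutation p was 0.2. Without VEH replicate 5 it was -0.94. The fourth gave 7.32, 3.64 and 9.14 in CET and 7.77, 11.42 and 8.74 in VEH. It ran over 5 log2 units within CET, and its difference of -2.61 had a standard error of 1.29. At both, CET replicate 2 was the lowest array and VEH replicate 5 the highest, the same arrays that stood at the high and low end of the 3′ to 5′ ratio. Without CET replicate 2 the differences were -1.02 at the third and -1.09 at the fourth, and with the control 3′ to 5′ ratio in the fit they were -1.08 and -0.996. Of genes with 4 probe sets, 23.3% had all on the same side. The log2 fold change of PGRMC1 with its probe sets averaged was -1.32, against -0.43 at the brightest alone. That average counts both probe sets of the shared stem, as does the count of 4 probe sets on the same side.

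PGRMC2, the paralog of PGRMC1, averaged lower after CET at 3 of its 4 probe sets. At the brightest, MmugDNA.21519.1.S1_at, CET replicates 1 to 3 had 11.58, 10.77 and 10.46 and VEH replicates 4 to 6 had 11.51, 11.22 and 11.66. The VEH arrays lay close together and CET replicates 2 and 3 below all of them, but CET replicate 1 lay within the VEH range. The difference was -0.53 (standard error 0.43, 95% interval -1.46 to 0.41, adjusted p = 0.85 by limma), and it stayed between -0.83 and -0.30 when 1 array was left out. The second probe set, MmugDNA.28627.1.S1_at, had 9.27, 6.22 and 8.12 in CET against 8.22, 8.97 and 9.14 in VEH. Its difference of -0.91 (standard error 0.77) rested on CET replicate 2, without which it was -0.08. The remaining 2 had both group means below the dim limit and differed in sign, at -0.58 (MmugDNA.19232.1.S1_at) and 0.74 (MmugDNA.16575.1.S1_at), each with an interval that included 0. At the first of these the groups did not overlap, with 6.52, 6.33 and 6.44 in CET against 7.61, 6.52 and 6.88 in VEH, but the gap was 0.0084 and the deposited signals did overlap.

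The 5 genes also differed in how far their brightest probe set moved between settings of the analysis. FKBP5 lay between -2.25 and -1.92 under the other scalings and floors, and FKBP4 between 0.52 and 0.91. PGRMC1 ranged more widely, at -0.26 by cyclic loess, -0.82 with the signals as deposited and -1.02 with array medians subtracted, and PGRMC2 from -0.85 to -0.33. PGR changed sign. The scalings themselves moved the median log2 fold change of all genes, which was -0.08 as reported, 0.0042 with the signals as deposited and -0.20 with array medians subtracted.

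**Figure D4:**
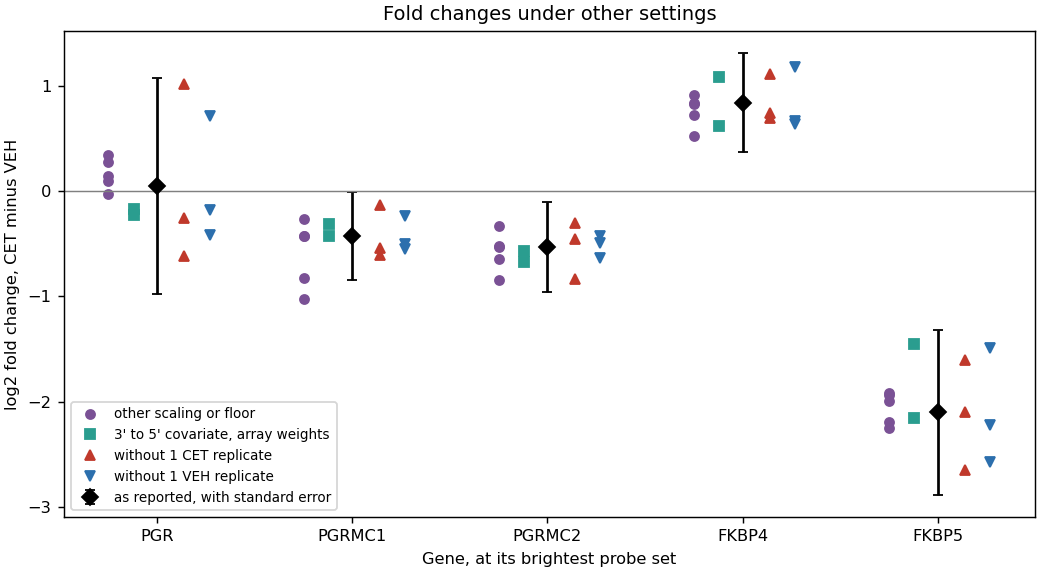
log2 fold change, CET minus VEH (vertical axis), of each gene at its brightest probe set, as reported with its standard error (black) and under other scalings, a 3′ to 5′ covariate or array weights, and with 1 array left out. FKBP5 stays below 0 and FKBP4 above 0 at every point, PGRMC1 and PGRMC2 stay below 0, and PGR lies on both sides. The second FKBP4 probe set, nearly as bright as the first, is not shown.

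The genes around the receptor were read from lists chosen with the pathway in mind, at the brightest probe set of each gene, and none of their members passed an adjusted p of 0.05. The heat shock machinery that assembles the receptor complex had 8 of 13 measured genes lower after CET and 5 higher, where 54.7% of all genes were lower. Its median was -0.22 beside -0.08 over all genes, moving to -0.036 when CET replicate 3 was left out and to -0.46 when CET replicate 1 was. HSPA4, an Hsp110-type chaperone, had 10.03, 9.21 and 8.94 in CET against 9.73, 10.46 and 10.18 in VEH, a log2 fold change of -0.73 (standard error 0.48). DNAJB1, an Hsp40 co-chaperone, was at -0.52 (standard error 0.47) and HSPA8, the constitutive Hsc70, at 0.42 (standard error 0.39). HSP90AB1, the beta form of Hsp90 that contacts both immunophilins, differed by 0.01. Among the other FK506 binding proteins 6 of 11 were lower and 5 higher, with a median of -0.02 that ranged from -0.22 to 0.20 when 1 array was left out. FKBPL, a divergent member that binds Hsp90, was furthest at -1.60 (standard error 0.86). Its mean over all arrays and its CET mean lay below the dim limit, and its VEH mean above it. FKBP11 was at -0.60 (standard error 0.47) and FKBP15 at -0.76 (standard error 0.80).

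A list of other progestin-binding membrane proteins, with relatives and partners of the PGRMC pair, had 5 of 7 genes lower and 2 higher. Of all genes, 54.7% were lower. The PAQR genes in it were split: PAQR6 (-0.37) and PAQR7 (-0.56) averaged lower, and PAQR5 and PAQR9 (0.86) higher. PAQR7 and PAQR9 had a mean over all arrays below the dim limit. The median of the list was -0.37, which was 0.57 without CET replicate 3. NENF, a secreted relative of the PGRMC proteins, had 9.77, 8.44 and 6.22 in CET against 9.25, 9.18 and 9.80 in VEH, a difference of -1.26 (standard error 0.79). PAQR5, a membrane progestin receptor, had 7.76, 7.76 and 7.90 in CET against 7.11, 5.93 and 7.60 in VEH. Its mean over all arrays and its VEH mean lay below the dim limit, and its CET mean above it. Its CET arrays were all above its VEH arrays, as for 5.07% of all genes, and the difference was 0.93 (standard error 0.72). SERBP1, a partner of PGRMC1, was at -0.86 (standard error 0.89). Of the other steroid receptors, NR3C1, the glucocorticoid receptor, had 8.95, 8.63 and 8.93 in CET against 6.12, 10.36 and 9.48 in VEH, a difference of 0.18 (standard error 0.91). ESR2 was at 0.48 (standard error 0.62) and ESR1, with both group means below the dim limit, at -0.01 (standard error 0.89).

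Genes known to be switched on by glucocorticoid or progesterone receptors, as FKBP5 is, had 8 of 9 lower after CET and 1 higher, with a median of -0.73. Of all genes, 54.7% were lower. The list was put together with earlier results of these data known, and its median was -0.30 when CET replicate 2 was left out and -1.11 when CET replicate 1 was. MT2A, a metallothionein, had 12.70, 11.58 and 12.65 in CET against 13.96, 14.24 and 14.01 in VEH. No CET array came within a log2 unit of a VEH array, and the difference was -1.76 (standard error 0.43, limma adjusted p = 0.83). All CET arrays lay below all VEH arrays for 6.45% of genes. MT2A was the 1 gene of the list at an unadjusted p under 0.05, where 3.01% of all genes stood on the lower side. DUSP1, a MAP kinase phosphatase, had 13.76, 9.99 and 12.20 in CET against 12.94, 13.29 and 13.01 in VEH, a difference of -1.10 (standard error 0.74). TSC22D3, which encodes the glucocorticoid-induced leucine zipper, had 11.83, 11.19 and 9.88 in CET against 11.91, 11.56 and 11.82 in VEH, a difference of -0.80 (standard error 0.51).

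**Figure D5:**
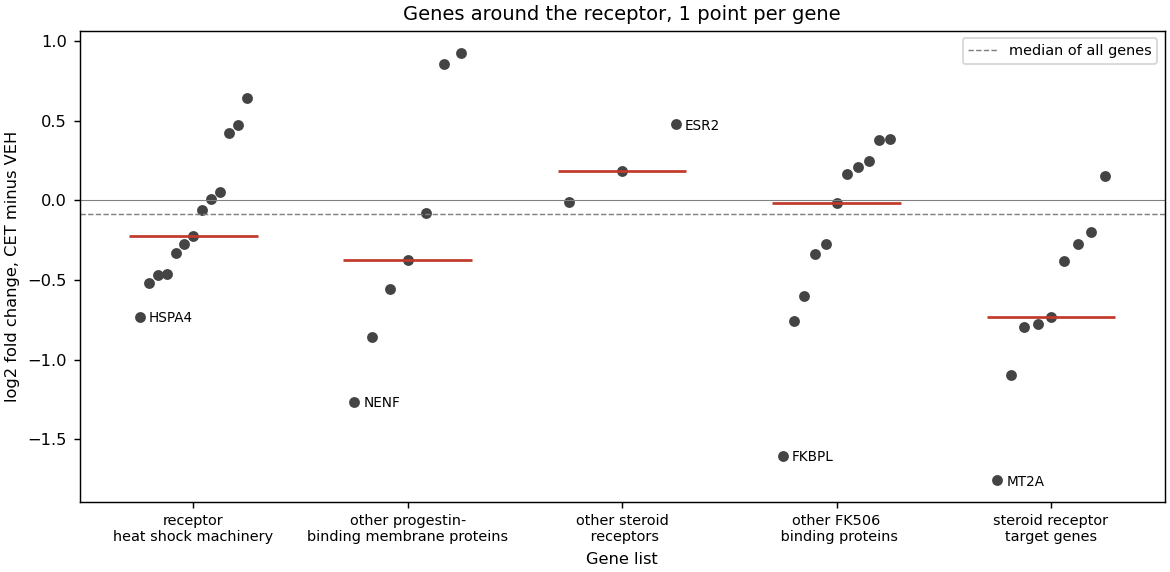
log2 fold change, CET minus VEH (vertical axis), of each measured gene of 5 lists of genes around the receptor (horizontal axis), 1 point per gene at its brightest probe set. Red bars mark list medians and the dashed line the median of all genes, -0.08. The steroid receptor target genes have 8 of 9 points below 0, with MT2A lowest, and the other lists lie on both sides of 0.

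The genes whose signal was most like that of each member over the 6 arrays were found by Pearson correlation among genes above the dim limit, as a description. These 6 points share the same libraries and their 3′ to 5′ ratios, and with so few arrays high values are common: 25 to 98 genes had an r above 0.95 with a given member. PGR was closest to ADAMTS4 and CKS1B (r = 0.99 each), whose log2 fold changes were 0.12 and -0.02. PGRMC1 was closest to CDS2 (r = 0.99) and DHRS11 (r = 0.98), and PGRMC2 to LRRC8A and TADA2B (both r above 0.99). FKBP4 was closest to NGDN and WDR86 (r = 0.99 each), with log2 fold changes of 0.97 and 0.71. FKBP5 was closest to GTF3C3 and GABARAPL2 (r = 0.99 each), with log2 fold changes of -0.94 and -0.27.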

How the data were processed

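Total RNA from CL of bonnet monkeys was hybridised to Affymetrix rhesus macaque arrays, 1 array per sample, so probes of a related species read the RNA. Per the labels, the authors summarised probe sets with MAS5 (version not given in the sources used here), and the deposited intensity values are linear signals with the same trimmed mean of 500 on every array. Detection calls were not used here. Probe set names are as deposited, and symbols come from the platform annotation, in which 24956 of 52707 probe sets had a single symbol, 361 several and 27390 none.

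Signals under 1 were set to 1, log2 values were quantile-normalized over 52865 probe sets, and 158 control probe sets were then left out. Both groups entered 1 fit in limma 3.58.1 (R 4.3.3), with an intensity trend, and p-values were adjusted by Benjamini-Hochberg with a threshold of 0.05. The probe set brightest on average stood for its gene. Within-array differences were tested by 2-sided exact permutation. The number of arrays limits the precision, with a replicate SD of 0.846 log2 units at the median probe set. Before use, the fit was run on simulated data to check that it recovered fold changes of known size. The simulated arrays had independent noise and held no 3′ to 5′ effect and no pairing of animals.

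Named were all probe sets of the 5 genes, the 3 genes of each pathway list with the smallest unadjusted p, the 2 genes most like each member, RPL19 and control probe sets. HSP90AB1, PAQR6, PAQR7, PAQR9, STAR and EPCAM were named after their values were seen. The members, pairs and lists were chosen with earlier results of these data known. The labels number the arrays 1 to 6 and do not pair them, although the animals of both groups are described as the same monkeys. They do not name the animal behind each array, so p-values measure the spread between these samples. Probe, promoter and protein sequences and genome positions were not used here. The alternatives were other scalings, log2 of the signal plus 16, low signals raised to the 20th percentile, dim probe sets left out, no intensity trend, array weights, the methods' t-test, the control 3′ to 5′ ratio in the fit, 6 possible pairings of animals as a block, other probe sets, and each array left out.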

Additional observations from a re-analysis of the deposited data

Results flagged for a closer look

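One result outside the main measurement stood out. The 3′ signal of the GAPDH control probe sets was 142.9 times the 5′ signal on CET replicate 2, against 5.89 and 3.03 times on CET replicates 1 and 3 and 7.31, 1.79 and 3.07 times on VEH replicates 4 to 6, so it lay above every VEH array. FKBP5, both bright probe sets of PGRMC1 and its dimmer pair had their lowest signal on this array, while FKBP4 had its highest at the brightest probe set. FKBP5 was -1.60 without it.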

How the results depend on the processing

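Across the main fit and the alternatives, 306 values with an adjusted p were listed for the members by limma or the methods' t-test. Some of the 306 repeat the same fit of a probe set, and 0 passed 0.05. FKBP5, FKBP4, PGRMC1 and PGRMC2 kept their direction at the brightest probe set in all alternatives. PGR was -0.026 by cyclic loess, -0.17 with array weights, -0.23 with the 3′ to 5′ covariate and -0.61 to 1.02 with 1 array left out. PGRMC2 was 0.74 when read at its MmugDNA.16575.1.S1_at probe set, which itself was -0.069 with a floor and -0.084 to 1.76 with 1 array left out. The second probe set of FKBP4 was -0.20 with array medians subtracted, -0.00064 with array weights and -0.20 to 0.24 with 1 array left out, and the third was -0.36 to 1.55. The shift of PGRMC1 minus PGRMC2 was -0.17 with the signals as deposited or array medians subtracted, -0.998 over the mean of probe sets and -0.24 to 0.32 with 1 array left out. The number of all probe sets at an unadjusted p under 0.05, 2840, was 5086 with array weights and ranged from 1694 without VEH replicate 5 to 7020 without CET replicate 1. With 1 array left out, the median of the list of other progestin-binding membrane proteins, relatives and partners ranged from -0.70 to 0.57. The median of the other FK506 binding proteins ranged from -0.22 to 0.20, and that of the heat shock machinery from -0.46 to -0.036. The causes were not tested. The labels do not say which arrays share an animal, so the true pairing is unknown. With animals as a block, the 6 possible pairings gave FKBP5 an unadjusted limma p between 0.013 and 0.036 and an adjusted p of at least 0.66. By the methods' t-test without a block its unadjusted p was 0.066. Dim probe set signals limit what can be read for PGR, the dimmer PGRMC2 probe sets and the CET level of FKBP5.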
